A study of Rattus norvegicus with 48 samples.

Results

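The UDP-glucuronosyltransferases (UGTs) and Ugdh were examined in the liver of rats fed the sodium salt of phenobarbital (PB). Of 7 genes of interest, Ugt2b1, Ugt2b34l1, Ugt1a1, Ugt1a6 and Ugdh were represented by 5 of the 31042 non-control probesets of the Affymetrix RG-230 v2 array, chosen by gene symbol. No probeset carried the symbol Ugt2b17 or Ugt2a3, so these members have no value here. Ugt2b1, Ugt2b34l1 and Ugdh had 1 probeset each. The other 2 probesets, 1370613_s_at and 1387759_s_at, each carried 8 Ugt1a symbols, among them Ugt1a1 and Ugt1a6, and are called Ugt1a-A and Ugt1a-B. All 5 were listed on all 48 arrays.

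The animals were male F344 rats whose diet held 0, 50, 500 or 1000 ppm PB, and RNA came from the left lateral lobe of the liver after 1, 3, 7 or 14 days. Each of the 16 groups of dose and day held 3 animals with 1 array each. The study design describes 1000 ppm as a dose that causes tumors and 50 and 500 ppm as doses that do not. The time matched controls were fed the same diet without PB, and no group was followed beyond day 14.

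UGTs sit in the membrane of the endoplasmic reticulum and join glucuronic acid to drugs, bilirubin, bile acids and steroids, which makes them soluble enough to leave in bile or urine. The sugar is taken from UDP-glucuronic acid, which Ugdh makes by oxidizing UDP-glucose. PB is a classical inducer of drug metabolism and acts in liver mainly through the nuclear receptor CAR (Nr1i3), which releases a program of cytochrome P450, UGT and transporter genes.

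The layout of the genes limits what a probeset can tell. RefSeq (GRCr8) has 8 protein-coding Ugt1a genes on chromosome 9 with 8 different starts and 1 shared annotated 3′ end, so each Ugt1a mRNA has its own first exon and its own promoter. All 8 symbols on the Ugt1a probesets are among these genes, so by annotation the probesets cannot tell Ugt1a1 from Ugt1a6. Which Ugt1a mRNAs and exons their probes bind was not examined. Ugt2b1 and Ugt2b34l1 lie in a cluster of 11 Ugt2 genes on chromosome 14. The 250 bases before the RefSeq start are shown for Ugt2b1, the member with the strongest response, and for Ugt1a1 and Ugt1a6. The promoters of these last genes differ, although both symbols are on the same probesets. The sequences are from GRCr8, plus strand, at chr14:21378632-21378881, chr9:96248893-96249142 and chr9:96194768-96195017. Capitals mark, on either strand, the letters AGTTCA and also AGGTCA (both half-sites of nuclear receptors such as CAR and PXR), GCGTG (the core of the sequence bound by the aryl hydrocarbon receptor) and GTTAAT (a half-site of the liver factor HNF1).
Ugt2b1: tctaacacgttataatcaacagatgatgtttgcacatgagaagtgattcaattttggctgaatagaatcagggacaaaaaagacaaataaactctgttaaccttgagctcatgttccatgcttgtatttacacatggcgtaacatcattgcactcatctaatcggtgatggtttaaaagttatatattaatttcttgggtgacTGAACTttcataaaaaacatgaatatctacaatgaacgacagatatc
Ugt1a1: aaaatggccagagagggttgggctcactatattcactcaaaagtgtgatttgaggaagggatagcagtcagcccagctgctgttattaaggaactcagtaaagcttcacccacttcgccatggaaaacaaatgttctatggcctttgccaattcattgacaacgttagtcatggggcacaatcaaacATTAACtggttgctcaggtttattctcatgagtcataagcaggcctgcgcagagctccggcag
Ugt1a6: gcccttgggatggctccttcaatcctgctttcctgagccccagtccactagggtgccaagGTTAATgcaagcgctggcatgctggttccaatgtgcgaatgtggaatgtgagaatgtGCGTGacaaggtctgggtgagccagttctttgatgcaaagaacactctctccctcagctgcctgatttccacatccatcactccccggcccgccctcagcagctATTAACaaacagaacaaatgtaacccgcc
The Ugt2b1 window held AGTTCA once, on the minus strand with its first base at position -47 from the start, and none of the other letters searched. The Ugt1a1 window held only GTTAAT, at position -63 on the minus strand. The Ugt1a6 window held GCGTG at position -133 on the plus strand and GTTAAT at positions -190 and -29. None of the marked matches overlapped. Of 33469 RefSeq promoter windows of this length, 12.2% held AGTTCA, while AGGTCA was in 14.1%, GCGTG was in 25.9% and GTTAAT was in 6.45%, so these matches are descriptions only.

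Values are signals on a linear scale with the mean of each array set to 500 by the authors. A probeset was called where its log2 signal differed at an adjusted p under 0.05 in a moderated linear fit of the kind limma makes, named limma from here on, adjusted by Benjamini-Hochberg over all probesets tested in that comparison. Arrays listed 13506 to 16378 probesets. Pairs of arrays correlated at 0.956 to 0.988. For 7 arrays the title and the animal number gave different groups, and the animal number was used. Array names in the labels begin with 1 of 6 different strings of digits, and the arrays that share a string are called a run, although the labels do not say what the string stands for. The 9 arrays of run 1, which include all 3 livers of 1000 ppm on day 14, stood apart with a median of 14260 listed probesets, where each other run had 15265 to 15978. All 7 hepatocyte markers were listed on every array and limma called none at any dose over the 4 days (at an unadjusted p under 0.05, 0 of 7 at 50 ppm, 2 at 500 ppm and 1 at 1000 ppm). Over the 4 days at 1000 ppm, where 14.1% of all probesets were called, limma called 1 of 5 macrophage markers lower (C1qa, log2 fold change -0.21 ± 0.06). At an unadjusted p under 0.05 it was 4 of these 5, with a median log2 fold change of -0.20. The 1 bile duct marker tested was higher at 1000 ppm (Epcam, log2 fold change 0.53 ± 0.10). Limma called 0 of 5 stellate cell, 0 of 5 endothelial and 0 of 2 blood cell markers there, with 3, 0 and 0 under an unadjusted p of 0.05. The summed signal of the 5 macrophage markers ranged from 10301 to 15712 at 1000 ppm and from 11054 to 17914 at 0 ppm, and the signal of the 1 bile duct marker listed on all arrays, of 5 on the array, from 484 to 1094 and from 401 to 711. Their part in the results was not tested, and in whole liver fewer cells of a type and less RNA per cell cannot be told apart.

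Averaged over the 4 days, PB raised all 5 member probesets at 1000 ppm, 4 at 500 ppm and 1 at 50 ppm. Among all probesets tested, 14.1% were called at 1000 ppm, 8.64% at 500 ppm and 0.149% at 50 ppm in either direction, and 7.11%, 4.64% and 0.149% were higher. The median log2 fold change of the 5 members was 0.58 at 1000 ppm, against -0.0076 over all 12680 probesets tested. At 500 ppm it was 0.44, against -0.0036 over all. At 50 ppm it was 0.11, against -0.0011 over all. The same 3 counts were found with the array run as a block in the fit, where 13%, 6.91% and 0.133% of all probesets were called.

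Ugt2b1, a UGT of rat liver that acts on steroids and many drugs, was raised at every dose and was the only member called at 50 ppm. On day 1 its signals were 5720, 6592 and 4192 at 0 ppm, 9905, 8043 and 9501 at 50 ppm, 16810, 24382 and 20697 at 500 ppm, and 20849, 23072 and 28738 at 1000 ppm. The 50 ppm livers lay above all controls and below all livers of the higher doses, which overlapped each other. By day 3 the signals were 5010, 5014 and 4157 at 0 ppm, 15458, 14248 and 16538 at 50 ppm, 26428, 31928 and 29839 at 500 ppm, and 33219, 32841 and 33697 at 1000 ppm. The doses no longer overlapped, and each treated liver was far above the highest control.

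On day 7 Ugt2b1 gave 3389, 4783 and 5840 at 0 ppm, 19361, 17120 and 16239 at 50 ppm, 33665, 32402 and 35836 at 500 ppm, and 27388, 29728 and 31216 at 1000 ppm. All 3 livers at 500 ppm were higher than all 3 at 1000 ppm on this day. On day 14 the signals were 4848, 4926 and 4904 at 0 ppm, 20786, 17592 and 17594 at 50 ppm, 27455, 30533 and 30998 at 500 ppm, and 34048, 30974 and 36753 at 1000 ppm. In the 48 livers no treated signal reached down into the control range of 3389 to 6592, and the lowest treated signal was 8043. For how many of all probesets this holds was not counted.

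**Figure D1:**
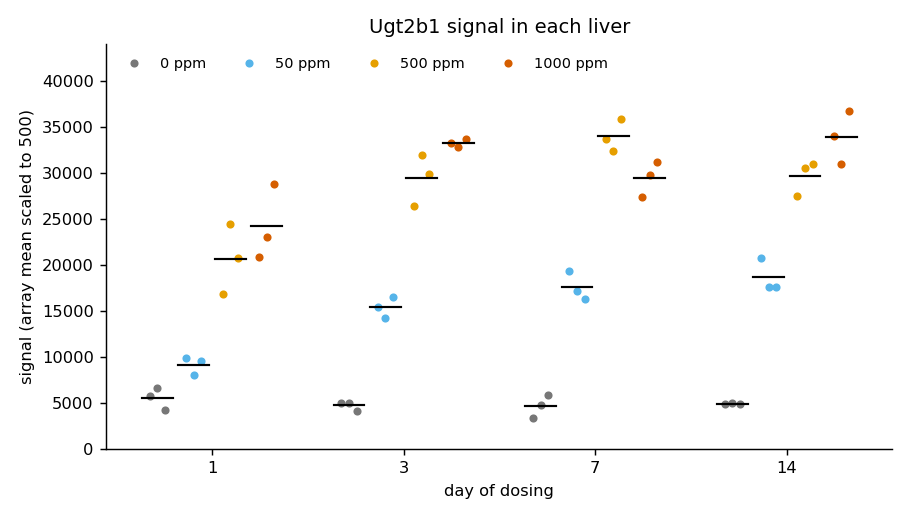
Ugt2b1 signal of each liver (y axis, linear, array mean scaled to 500) by day of dosing (x axis) and dose (color, 0 to 1000 ppm from left to right). Points are the 3 livers of a group and bars their mean. Controls stay between 3389 and 6592, 50 ppm livers lie between 8043 and 20786, and the 500 and 1000 ppm livers lie between 16810 and 36753.

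The fold change of Ugt2b1 over the 4 days was 3.00 at 50 ppm (95% interval 2.69 to 3.34), 5.70 at 500 ppm (5.12 to 6.35) and 6.12 at 1000 ppm (5.49 to 6.81). The limma adjusted p-values were 1.6e-17, 2.9e-24 and 7.6e-25. By day, the log2 fold change at 1000 ppm was 2.15, 2.82, 2.69 and 2.79 on days 1, 3, 7 and 14 (SE 0.15 each), and all 4 were called. At 500 ppm it was 1.92, 2.64, 2.90 and 2.60, all called. At 50 ppm it was 0.75, 1.71, 1.94 and 1.93, of which the day 1 value missed the threshold (limma adjusted p = 0.0925) and passed it under quantile normalization (0.81, adjusted p = 0.0122) and with signals divided by the array median (0.88, adjusted p = 0.0066).

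With the array run as a block, the 8 Ugt2b1 calls at 500 and 1000 ppm by day held, with log2 fold changes of 2.19 to 2.97 at 500 ppm and 2.36 to 2.78 at 1000 ppm. At 50 ppm the block kept days 7 and 14 and lost day 3 (log2 fold change 1.29, limma adjusted p = 0.318). Treated and control livers of the same day shared a run in only 4 cases, with 1 liver each. The Ugt2b1 log2 differences, treated minus control, were 3.02 for 1000 ppm on day 3, 2.09 for 500 ppm on day 1, 2.51 for 50 ppm on day 7 and 0.79 for 50 ppm on day 1. All 4 had the same direction as the full fit.

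In mean signal, the rise over controls at 50 ppm was 19.5%, 37.5%, 52.1% and 47.4% of the rise at 1000 ppm on days 1, 3, 7 and 14. At 500 ppm it was 80.8%, 86.5%, 118% and 85.3%. These shares use the same controls in numerator and denominator. The 118% of day 7 comes from 500 ppm livers whose run and labels limit the comparison. Numbered as listed above, livers 2 and 3 are in run 1, and the title of liver 1 names 50 ppm on day 7. Between 500 and 50 ppm, 4 of 5 members differed over the 4 days, against 5.92% of all probesets, and Ugt2b1 was higher at 500 ppm by 1.90-fold (1.71 to 2.12; limma adjusted p = 7.4e-11).

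Between 1000 and 500 ppm, 0 of 5 members were called in limma, as were 0% of all 12396 probesets tested. At an unadjusted p under 0.05 the counts were 2 of 5 members and 712 of all probesets. The ratio of Ugt2b1 at 1000 to 500 ppm was 1.07 (95% interval 0.963 to 1.19; limma adjusted p = 0.972). The 2 members under the unadjusted threshold were the Ugt1a probesets, with ratios of 1.10 (1.01 to 1.19) and 1.11 (1.03 to 1.19). For Ugt2b34l1 the ratio was 1.18 (0.984 to 1.41) and for Ugdh 1.07 (0.976 to 1.16).

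By day, at 1000 ppm 3, 4, 4 and 4 of the 5 members were called on days 1, 3, 7 and 14, against 2.46%, 4.01%, 1.86% and 3.45% of all probesets. At 500 ppm 1, 2, 4 and 3 were called, against 0.842%, 1.16%, 3.5% and 1.51%. At 50 ppm 0, 1, 1 and 1 were called, against 0.0142%, 0.102%, 3.66% and 0.112%. Every one of these calls was upward. At 50 ppm on day 1, where limma called none, 1 of 5 members was under an unadjusted p of 0.05. The run as a block left 1, 4, 1 and 1 calls at 1000 ppm, against 0.0459%, 2.92%, 0.0974% and 0.502% of all probesets in that fit. At 500 ppm it left 1 call on each day, against 0.151%, 0.03%, 0.0949% and 0.0981%. At 50 ppm it left 0, 0, 1 and 1, against 0.00717%, 0.00775%, 0.613% and 0.0227%, and on each of the days without a call 1 of 5 members was under an unadjusted p of 0.05. With the 7 arrays of conflicting labels placed by their titles, the calls summed over the days were 12 at 1000 ppm, 4 at 500 ppm and 3 at 50 ppm, against 15, 10 and 3 by animal number, and those between 500 and 50 ppm were 2 instead of 4. The call that the run block kept on every day at 500 and 1000 ppm was that of Ugt2b1.

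**Figure D2:**
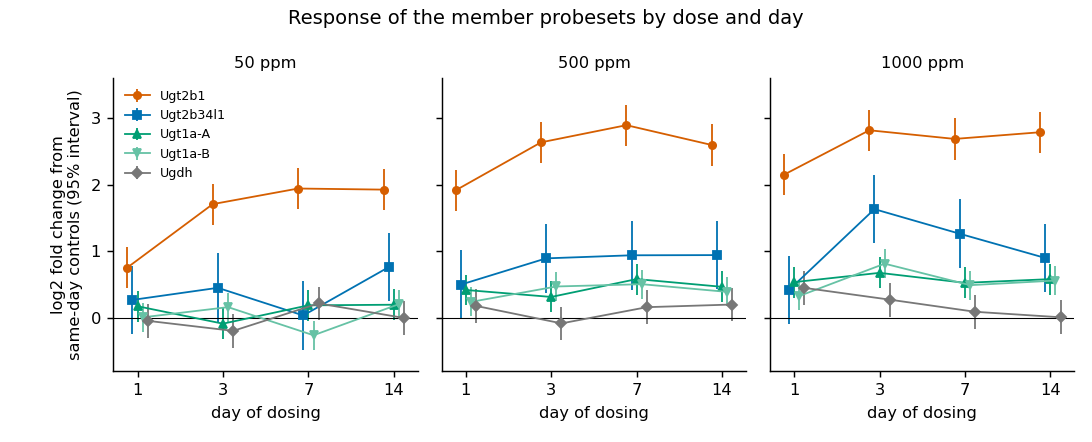
Log2 fold change from time matched controls (y axis) of the 5 member probesets by day (x axis) at 50, 500 and 1000 ppm, with 95% intervals from limma. Ugt2b1 lies above the others at each point, at 2.15 to 2.82 for 1000 ppm, while Ugdh at 1000 ppm is 0.45 on day 1 and 0.005 on day 14.

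The change of the response over time was tested as the response on day 14 minus that on day 1. For Ugt2b1 the difference was 0.64 at 1000 ppm (log2, SE 0.22; limma adjusted p = 0.128), 0.68 at 500 ppm (adjusted p = 0.302) and 1.17 at 50 ppm (adjusted p = 0.0146). Only the value at 50 ppm was called, and 1 of 5 members compares with 0.0296% of all probesets in that comparison. It did not hold when the run was blocked (1.45 ± 0.36, adjusted p = 0.631), without the run 1 arrays (1.25, adjusted p = 0.255), with the 7 arrays placed by their titles (1.13, adjusted p = 0.141), and without control 2 of day 1, control 1 of day 14 or 50 ppm liver 1 of day 14, numbered as they are listed above (adjusted p up to 0.108). At 1000 ppm 0 of 5 members were called for this difference, against 1.02% of all probesets, with 2 of 5 members under an unadjusted p of 0.05 (Ugt2b1 and Ugdh). At 500 ppm limma called 0 of 5, against 0.0596%, with 1 under the unadjusted threshold.

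In untreated liver, day 14 minus day 1 gave 0 of 5 calls in limma, against 0.149% of all probesets, and 0 of 5 at an unadjusted p under 0.05. The differences ran from -0.14 (SE 0.15) for Ugt2b1 to 0.10 (SE 0.11) for Ugt1a-A.

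The Ugt1a locus encodes the enzymes that conjugate bilirubin (Ugt1a1) and small planar phenols (Ugt1a6). Its 2 probesets rose at 500 and 1000 ppm by a smaller factor than Ugt2b1. Over the 12 livers of each dose, Ugt1a-A averaged 15104 ± 728 at 0 ppm, 16425 ± 1721 at 50 ppm, 20623 ± 2227 at 500 ppm and 22673 ± 2819 at 1000 ppm (SD over all days). Ugt1a-B averaged 12859 ± 835, 13137 ± 1484, 17021 ± 1872 and 18919 ± 2837 at these doses. In both, the lowest liver at 500 and at 1000 ppm was above the highest control of the same day on all 4 days. The share of all probesets that separate like this was not counted. Not all of these days were called. At 500 ppm limma did not call Ugt1a-A on days 1 and 3 (adjusted p = 0.0740 and 0.205) or Ugt1a-B on days 1 and 14 (0.357 and 0.0552). At 1000 ppm it did not call Ugt1a-B on day 1 (0.103).

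On day 3 at 1000 ppm, where the Ugt1a response was largest, Ugt1a-A gave 24185, 21486 and 28744, against 15412, 15426 and 15468 in controls. The companion probeset gave 20368, 17441 and 25757, against 12439, 11826 and 11492 in controls. The same liver was highest in both and the same liver lowest. At 50 ppm on day 7, Ugt1a-B gave 11584, 11413 and 10529, against 12878, 13517 and 13886 in controls, so these 50 ppm livers lay below their controls, and the difference did not pass the test (limma adjusted p = 0.194). The other probeset gave 17300, 15763 and 18093 in the same livers, against 13649, 15296 and 16083.

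The fold change of Ugt1a-A over the 4 days was 1.08 at 50 ppm (0.999 to 1.17; limma adjusted p = 0.597), 1.36 at 500 ppm (1.25 to 1.47; adjusted p = 7.5e-07) and 1.49 at 1000 ppm (1.38 to 1.62; adjusted p = 1.5e-09). For Ugt1a-B it was 1.02 (0.943 to 1.10; adjusted p = 0.956), 1.32 (1.22 to 1.42; adjusted p = 1.7e-06) and 1.46 (1.35 to 1.57; adjusted p = 1.2e-09). Both were also called between 500 and 50 ppm, where Ugt1a-A lost its call with the 7 arrays placed by their titles (log2 difference 0.24 instead of 0.33, adjusted p = 0.0556). Within groups, the deviations of the 2 probesets from their group means correlated at 0.75 over 48 livers, so they are no independent measurements of each other.

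By day at 1000 ppm, Ugt1a-A had log2 fold changes of 0.53, 0.67, 0.52 and 0.58 on days 1, 3, 7 and 14, all called. Ugt1a-B had 0.33, 0.81, 0.49 and 0.56, called on days 3, 7 and 14. The day 7 call was lost without control 1 or 1000 ppm liver 2 in Ugt1a-A (adjusted p up to 0.0686) and without 1000 ppm liver 3 in Ugt1a-B (adjusted p = 0.0644). At 500 ppm Ugt1a-A was called on days 7 and 14 and Ugt1a-B on days 3 and 7. The day 14 call was lost without any 1 of the 3 controls or without 500 ppm liver 2 or 3 (adjusted p up to 0.120), and the day 3 call without control 2 or 3 or 500 ppm liver 1 or 2 (adjusted p up to 0.133). The day 7 call of Ugt1a-B was lost under quantile normalization (adjusted p = 0.0603), and without the run 1 arrays both day 7 calls at 500 ppm and the day 1 call of Ugt1a-A at 1000 ppm were lost (adjusted p = 0.0862, 0.262 and 0.236). With the 7 arrays placed by their titles, all 4 of these calls at 500 ppm (adjusted p from 0.0926 to 0.254) and the day 7 call of Ugt1a-B at 1000 ppm (adjusted p = 0.102) were lost. With signals divided by the array median, the day 14 value of Ugt1a-B at 1000 ppm was 0.33 and not called (adjusted p = 0.0571), its day 1 value of 0.43 was called (adjusted p = 0.0408), and at 500 ppm the day 14 call of Ugt1a-A (adjusted p = 0.0830) and the day 7 call of Ugt1a-B (0.28, adjusted p = 0.103) were lost. When the run was blocked, day 3 at 1000 ppm was the only day on which Ugt1a was called, in both probesets. The block multiplies the variance of that comparison by 1.52, against 3.98, 3.52 and 2 on days 1, 7 and 14. At 500 ppm the factor was 2.33 to 3.9. In this fit Ugt1a-A at 1000 ppm had log2 fold changes of 0.72, 0.37 and 0.51 on days 1, 7 and 14, not called.

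Ugt2b34l1, a Ugt2b gene at the end of the chromosome 14 cluster whose substrates are not described here, had weak signals and the largest SE of its daily log2 fold changes (0.25, against 0.15 for Ugt2b1). Over the 4 days it averaged 248 ± 30 at 0 ppm, 330 ± 89 at 50 ppm, 448 ± 120 at 500 ppm and 553 ± 238 at 1000 ppm (SD, 12 livers each). On day 3 at 1000 ppm it gave 666, 593 and 1152, against 260, 234 and 250 in controls. On day 1 at 1000 ppm it gave 400, 236 and 356, against 277, 190 and 270, and the groups overlapped.

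The fold change of Ugt2b34l1 over the 4 days was 1.30 at 50 ppm (1.09 to 1.55; limma adjusted p = 0.375), 1.76 at 500 ppm (1.47 to 2.11; adjusted p = 2.2e-05) and 2.07 at 1000 ppm (1.73 to 2.48; adjusted p = 1.3e-07). By day at 1000 ppm its log2 fold change was 0.42, 1.63, 1.26 and 0.90 (SE 0.25 each), called on days 3, 7 and 14. When the run was blocked, the day 7 value was 1.15 (adjusted p = 0.685) and the day 14 value 1.05 (adjusted p = 0.274), and both calls were lost. The day 14 call was also lost without any 1 of the 3 controls or without 1000 ppm liver 2 or 3 (adjusted p up to 0.184), under quantile and median scaling (adjusted p = 0.133 and 0.0806), with the titles (adjusted p = 0.0724) and with missing signals set to the lowest of the array (adjusted p = 0.0560). At 500 ppm it was called on days 7 and 14 at adjusted p = 0.0320 and 0.0493, and both calls were lost when the run was blocked (adjusted p = 0.794 and 0.792), under quantile and median scaling and with the titles (adjusted p from 0.0609 to 0.120). The day 7 value was 0.62 without the run 1 arrays (adjusted p = 0.547), and the day 14 call was also lost without the filter on low signals (adjusted p = 0.0508) and with missing signals at the lowest of the array (adjusted p = 0.0693). Leaving out 1 array ended the day 7 call for 5 arrays, namely all 3 controls and 500 ppm livers 2 and 3, and the day 14 call for 29 of the 48. At 500 against 50 ppm the difference of 1.36-fold (adjusted p = 0.0326) did not hold with the run in the model (adjusted p = 0.0712), under quantile and median scaling (adjusted p = 0.0605 and 0.0557), with missing signals at the lowest of the array (adjusted p = 0.0523), with the 7 arrays placed by their titles (adjusted p = 0.159) or left out (adjusted p = 0.212), and without any 1 of 9 arrays of these doses (adjusted p up to 0.0727). Without the run 1 arrays its log2 value was 0.27 instead of 0.44 (adjusted p = 0.459).

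Ugdh, which makes UDP-glucuronic acid from UDP-glucose, had the smallest fold change of the 5 members over the 4 days at 500 and 1000 ppm. On day 1 at 1000 ppm its log2 fold change of 0.45 stood beside 0.42 for Ugt2b34l1 and 0.33 for Ugt1a-B. At 1000 ppm its signals were 7926, 9890 and 9732 after 1 day, against 7635, 7288 and 5402 in controls. After 3 days they were 8441, 7287 and 8810, against 7058, 6774 and 6458. The groups did not overlap on these days. After 7 days the 1000 ppm livers gave 6484, 5789 and 6051, against 6069, 5327 and 5852 in controls. After 14 days they gave 5452, 6925 and 7220, against 6423, 5865 and 7159. By then 1000 ppm and control livers overlapped. At the lower doses, the 50 ppm livers (lowest 6348) and the 500 ppm livers (lowest 6286) of day 7 also lay above all controls (highest 6069). Neither difference passed the test (limma adjusted p = 0.445 and 0.536). How many of all probesets separate in this way was not counted.

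The log2 fold change of Ugdh at 1000 ppm was 0.45, 0.27, 0.09 and 0.005 on days 1, 3, 7 and 14 (SE 0.13 each), of which day 1 was called (limma adjusted p = 0.0451). That call was lost when the run was blocked (adjusted p = 0.628), under quantile normalization (adjusted p = 0.0536), with the titles (adjusted p = 0.0545), with missing signals at the lowest of the array (adjusted p = 0.0527), without the run 1 arrays, which hold 2 of the 3 controls of that day (0.26, adjusted p = 0.569), and without any 1 of 16 arrays, 4 of them in the compared groups (adjusted p up to 0.324). Over the 4 days the fold change was 0.993 at 50 ppm (0.910 to 1.08), 1.08 at 500 ppm (0.989 to 1.18) and 1.15 at 1000 ppm (1.05 to 1.26; adjusted p = 0.0250). The 1000 ppm call was lost under quantile normalization (adjusted p = 0.0905), with signals divided by the array median (adjusted p = 0.119), without the run 1 arrays (adjusted p = 0.0611), and without control 3 of day 1, control 2 of day 14, 1000 ppm liver 2 of day 1 or 1000 ppm liver 3 of day 14 (adjusted p up to 0.0623). The response on day 14 minus that on day 1 was -0.44 (SE 0.18) and did not pass the test (adjusted p = 0.203). Dividing each array by its median signal instead of the authors' mean shifts every log2 value of that comparison by -0.33, and Ugdh was then called (-0.78, adjusted p = 0.0064).

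**Figure D3:**
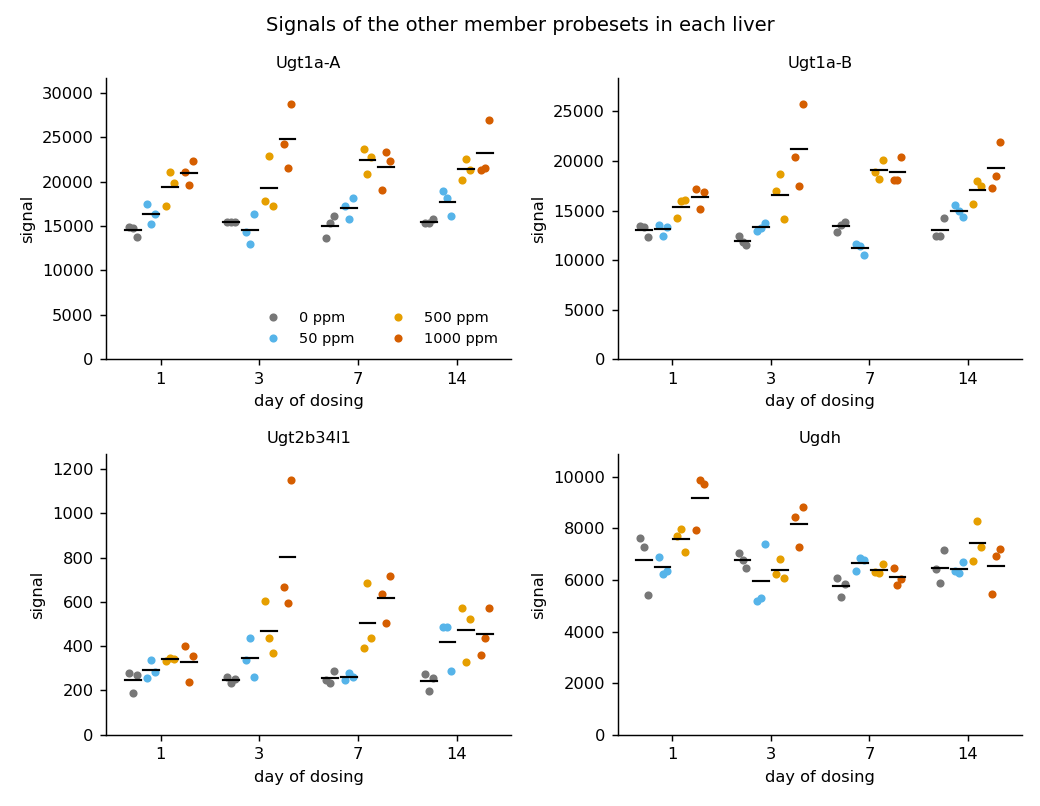
Signals of the Ugt1a probesets, Ugt2b34l1 and Ugdh in each liver (y axes, linear, array mean scaled to 500) by day of dosing (x axes) and dose (color, 0 to 1000 ppm from left to right), with bars at the group means. Both Ugt1a probesets separate 500 and 1000 ppm livers from controls on all days, although not every day was called and the share of all probesets that separate was not counted. Ugt2b34l1 reaches 1152 in 1 liver at 1000 ppm on day 3, and Ugdh at 1000 ppm overlaps the controls on days 7 and 14.

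Other UGT genes rose with smaller fold changes than Ugt2b1. Of 9 further UGT probesets, 4 were listed on all arrays and tested, and all 4 were higher at 500 and 1000 ppm over the 4 days. Among all probesets, 4.64% and 7.11% were higher at these doses. At 1000 ppm the log2 fold changes were 0.56 ± 0.05 for Ugt2b10, 0.52 ± 0.10 for Ugt2a1, 0.34 ± 0.06 for Ugt2b15 and 0.32 ± 0.05 for Ugt2b35 (SE; limma adjusted p from 6.2e-11 to 2.3e-04). At 50 ppm, where 0.149% of all probesets were higher, Ugt2b10 was called too (0.30 ± 0.05, adjusted p = 6.3e-04), and the other 3 were between 0.10 and 0.16. Ugt2b7 was listed on 11 arrays with signals of 33.4 to 137, and the Ugt2b and Ugt8 probesets on 0 to 6 arrays each. None of these was tested.

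Along the cluster, RefSeq places the genes in the order Ugt2a1, Ugt2a3, Ugt2b, Ugt2b15, Ugt2b37, Ugt2b35, Ugt2b7, Ugt2b7l1, Ugt2b1, Ugt2b10 and Ugt2b34l1. Of these 11 genes, 8 had a probeset and 6 could be tested. At 1000 ppm the log2 fold changes were 2.61, 0.56 and 1.05 for the adjacent genes Ugt2b1, Ugt2b10 and Ugt2b34l1, and 0.32 to 0.52 for Ugt2b15, Ugt2b35 and Ugt2a1 on the other side, of which Ugt2a1 and Ugt2b10 differed by less than their SEs. Deviations from the group means correlated at -0.06 between Ugt2b1 and Ugt2b10, at -0.13 between Ugt2b1 and Ugt2b34l1 and at 0.63 between Ugt2b35 and Ugt2b15, over the same 48 livers. Ugt2b genes resemble each other in sequence, and how far 1 probeset also binds the mRNA of a neighbor was not tested.

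**Figure D4:**
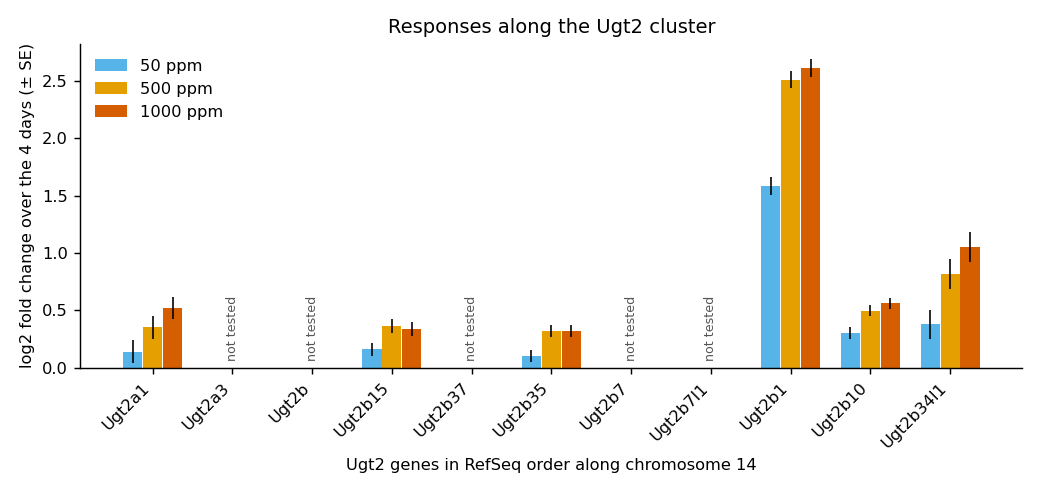
Log2 fold change over the 4 days (y axis, bars from 0 with the SE of limma) at 50, 500 and 1000 ppm for the Ugt2 genes in their RefSeq order on chromosome 14 (x axis, order only, not distance). Ugt2b1 reaches 2.61 at 1000 ppm and the other tested genes 0.32 to 1.05, and 5 genes without a tested probeset are marked as not tested.

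The genes that make UDP-glucose or spend and salvage nucleotide sugars moved in both directions. Of 11 tested genes of this list, 2 rose and 2 fell at 1000 ppm over the 4 days, with a median log2 fold change of -0.01 against -0.0076 over all probesets, of which 14.1% were called in either direction. The 2 nucleoside diphosphatases Entpd5 (0.47 ± 0.06) and Entpd4 (0.22 ± 0.06) rose, although Entpd4 missed the threshold when the run was blocked (adjusted p = 0.0531). Ugp2, which makes UDP-glucose from glucose 1-phosphate, fell by 0.25 (SE 0.08; log2), and the nucleotide pyrophosphatase Enpp1 fell by 0.25 (SE 0.05). At 500 ppm 1 rose and 1 fell, against 8.64% of all probesets called, and at 50 ppm limma called 0 of 11, with 2 under an unadjusted p of 0.05.

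Among 9 genes that use glucuronate or make ascorbate from it, 1 rose and 1 fell at 1000 ppm (median -0.05), where 14.1% of all probesets were called in either direction, so the count of 2 is no result about these genes. The reductase Akr1a1, which turns glucuronate into gulonate, rose by 0.11 (log2, SE 0.03), and Rgn, the gluconolactonase of ascorbate synthesis, fell by 0.46 (SE 0.07). At 500 ppm 0 rose and 1 fell, against 8.64% of all probesets called, and at 50 ppm limma called 0 of 9, with 0 under an unadjusted p of 0.05.

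Of 8 genes for the export, uptake and hydrolysis of glucuronides, 3 rose and 1 fell at 1000 ppm (median 0.02), against 14.1% of all probesets called in either direction and 7.11% higher. Abcc2, the canalicular pump that exports glucuronides into bile, rose by 0.47 (log2, SE 0.05), the uptake carrier Slco1a4 by 0.52 (SE 0.07) and the pump Abcc4 by 0.38 (SE 0.09). The carrier Slco1a1 fell by 0.22 (SE 0.06). At 500 ppm 2 rose and 1 fell, against 8.64% of all probesets called, and at 50 ppm limma called 0 of 8, with 1 under an unadjusted p of 0.05.

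Of 13 tested regulators of UGT genes, 3 rose and 4 fell at 1000 ppm (median -0.02), against 14.1% of all probesets called in either direction, and 1 of these falls was not called with the run as a block. The largest changes were those of Ahr, the aryl hydrocarbon receptor (0.87 ± 0.16), Nr1i3, which encodes CAR (-0.49 ± 0.10), the antioxidant regulator Nfe2l2 (0.38 ± 0.09) and its partner Keap1 (0.31 ± 0.06). At 500 ppm 3 rose and 3 fell, against 8.64% of all probesets called, and at 50 ppm limma called 0 of 13, with 3 under an unadjusted p of 0.05. For reference, 6 other genes of drug metabolism were listed, of which 4 were tested. Cyp2b1 and Cyp2b2 had no probeset annotated to them alone and have no value here. All 4 tested genes rose at 1000 ppm, with log2 fold changes of 1.54 ± 0.05 for the epoxide hydrolase Ephx1, 1.11 ± 0.10 for the quinone reductase Nqo1, 1.08 ± 0.08 for the P450 reductase Por and 0.85 ± 0.06 for Cyp3a23-3a1. All 4 were also called at 500 ppm and 1 at 50 ppm, against 8.64% and 0.149% of all probesets.

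Patterns over dose and day were compared with those of 8387 other probesets with 1 symbol by Pearson correlation of the 16 group means. The 5 most similar to Ugt2b1 were Tex2 (0.95), Cyp3a2 (0.95), Vav2 (0.94), Casp4 (0.94) and Mmgt1 (0.93). Their deviations within groups correlated with those of Ugt2b1 at -0.04 to 0.50, the highest being Cyp3a2, a P450 of rat liver. For Ugt1a-A the 5 were Por (0.97), Cmc1 (0.95), Parp1 (0.95), Bnip3l (0.95) and Mcoln1 (0.94). For Ugdh they were Psmd11 (0.86), Usp14 (0.85), Pomp (0.84), Mrps7 (0.84) and Rpsa (0.84). Within groups, the deviations of these genes correlated with those of Ugt1a-A at -0.14 (Cmc1) to 0.61 (Bnip3l), and with those of Ugdh at 0.02 (Mrps7) to 0.49 (Pomp). All of these correlations share the same 48 arrays and are the highest of 8387 by choice.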

How the data were processed

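Liver RNA of 48 rats was hybridized to 1 array each. Using MAS 5.0, the authors reduced each probeset to a signal and then brought every array to a mean of 500, and these deposited intensity values were used on a linear scale. A second deposited table of ratio values was made by the authors by dividing each signal by the median of its probeset over all arrays. All 776 of its probesets matched the signals within 0.001, and it was not used further. Entries written as Null in place of a signal, whose meaning is not given in the sources used here, were left missing. The number of arrays limits the precision.

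Groups follow the animal number of each array, since the titles of 7 arrays name another group. Log2 signals were fitted with 1 mean per dose and day. Variances were moderated as in limma 3.58.1 (R 4.3.3), in a form that allows missing values. This form was checked against limma only on probesets listed on all arrays. It was tested on simulated data with and without missing values. Tested were the probesets that reached 90 on 3 or more arrays and had 2 or more listed values in each group compared (18073 passed the first rule), and p-values were adjusted within each comparison. All printed p-values come from this fit or, where an alternative is named beside them, from the same kind of fit under that alternative. The text names both limma. Runs are the arrays whose names share their leading digits. The 3 arrays of a group are different animals.

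Of the non-control probesets, 20826 carried 1 symbol, 436 several and 9780 none. Every member probeset was named. From the other lists, up to 4 genes past the threshold at 1000 ppm with the largest changes were named, and for Ugt2b1, Ugt1a and Ugdh the 5 probesets with the most similar group means. The members, lists and comparisons were chosen with earlier results of these data known. Promoters are from RefSeq (GRCr8), which also gave gene order. The alternatives were the array run as a fixed or random block, quantile and median scaling, other groupings of the 7 arrays, no filter, Null entries at the lowest value of the array, the 2-way analysis of variance of the methods, a replicate block, and leaving out each array. Leaving out the arrays of run 1 was added after the data were seen.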

Additional observations from a re-analysis of the deposited data

Results flagged for a closer look

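The Ugt2b1 response to 50 ppm PB differed between day 14 and day 1 by 1.17 on the log2 scale (SE 0.22; limma adjusted p = 0.0146), by a test of the difference itself. The day 14 response was 1.93 and the day 1 response 0.75, of which the day 1 value was itself not called (limma adjusted p = 0.0925). With the run as a block the difference was 1.45 ± 0.36 and was not called (adjusted p = 0.631). It was not called either with the 7 arrays of conflicting labels placed by their titles (1.13, adjusted p = 0.141) or without the arrays of run 1 (1.25, adjusted p = 0.255). No 50 ppm liver of day 14 shares a run with a control of that day. The part of the run in this difference was not tested further.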

How the results depend on the processing

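No called value of a member changed direction under any alternative that was run. The counts over the 4 days were 5 at 1000 ppm (4 under quantile or median scaling and without the arrays of run 1), 4 at 500 ppm and 1 at 50 ppm under all alternatives. The member left out each time at 1000 ppm was Ugdh. The calls by day, of 20, were fewer. They were 15 at 1000 ppm, 10 at 500 ppm and 3 at 50 ppm, against 7, 4 and 2 with the run as a fixed block, which multiplies the variance of these comparisons by 1.52 to 3.98. The factor was lowest for 1000 ppm on day 3 and for 50 ppm on day 7. With the 7 arrays placed by their titles they were 12, 4 and 3, and with median scaling 14, 6 and 4. The 4 calls between 500 and 50 ppm became 2 with the titles. The count of members whose 1000 ppm response differs between day 14 and day 1 was 0, and 1 with median scaling (Ugdh). Leaving out 1 array gave 13 to 15 calls by day at 1000 ppm, 8 to 11 at 500 ppm and 3 to 4 at 50 ppm, and 4 to 5, 4 and 1 over the 4 days. The calls between 500 and 50 ppm were then 3 to 4, and those between 1000 and 500 ppm, between day 14 and day 1 at 1000 ppm and in controls stayed at 0. Median scaling shifted all log2 values by -0.05 to -0.04 over the 4 days and by -0.23 to 0.12 on single days, lowest on day 14 at 1000 ppm and highest on day 1 at 50 ppm.

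The replicate numbers of the titles do not name shared animals. With them as a replicate block the calls were 15, 11 and 3 by day and 5, 4 and 1 over the 4 days, and the other counts did not change. Deviations of arrays with the same number correlated at 0.02 on average, against -0.01 for other numbers, and 27 of 48 arrays correlated best with their own number. The 2-way analysis of variance named in the methods was run on probesets with at least a 1.5-fold change in some dose and day. It found a dose effect for 4 of the 4 members it includes, against 747 of 2709 probesets, and leaves out Ugdh. These members enter through a change in the same data, so their dose effect is no independent support. The present flags that the methods also ask for were not used. In limma, 5 of 5 members were called in at least 1 of the 3 comparisons of a dose with control over the 4 days. This is a count over separate comparisons and no single test of a dose effect. Among all probesets, 14.1%, 8.64% and 0.149% were called at 1000, 500 and 50 ppm. Ugdh enters the count only through its call at 1000 ppm.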
